A study of Canis lupus familiaris with 77 samples.

Results

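The miR-29 family was followed across the tissues of the dog through its annotated mature miRNAs cfa-miR-29a, cfa-miR-29b and cfa-miR-29c, called miR-29a, miR-29b and miR-29c here. They are the 3 rows with these names among the 650 miRNAs that had at least 1 read in the libraries used. All 3 were detected in all 76 libraries, and miR-29a was the most abundant with 164874 reads in all, followed by miR-29c with 42351 and miR-29b with 9321.

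As background, the miR-29 miRNAs share a seed, the stretch near the 5′ end that pairs with target mRNAs. They are known to repress mRNAs of the extracellular matrix, among them collagens and elastin, and also those of the DNA methyltransferases DNMT3A and DNMT3B and of the survival factor MCL1. Loss of miR-29 accompanies fibrosis in heart, liver, lung and kidney, and the family rises as muscle and nerve cells mature. The genes lie in clusters. In a dog gene table of another assembly (UU_Cfam_GSD_1.0), MIR29A stood next to MIR29B-1 on chromosome 14, and MIR29C-1, MIR29C-2 and MIR29B-2 were adjacent on chromosome 7. The reads of the copies of miR-29b, and of those of miR-29c, cannot be told apart, and the near-identical mature forms could exchange reads in counting.

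The samples were small RNA libraries of 16 tissues from untreated male beagle dogs aged 10 months, sequenced by miR-seq to map where each miRNA is expressed. There were 5 libraries for each of 14 tissues, namely liver, heart, testis, lung, skeletal muscle (the quadriceps), kidney, thymus, brain, pancreas, duodenum, jejunum, ileum, bone marrow and plasma, with 4 for colon and 2 for sciatic nerve. The animals were perfused with phosphate buffered saline before the organs were taken. Bone marrow RNA was extracted with TriReagent and plasma RNA from a volume of fluid, while the solid tissues went through a magnetic bead kit, so extraction and tissue cannot be told apart for plasma and marrow. The study describes the sciatic nerve samples as a split pool in one place and as single samples beside a pool in another, so the 2 libraries may be separate dogs or parts of a pool. The tissues were taken from the same 5 dogs, but the labels carry no dog number, and the library numbers used here are only names. Libraries of different tissues were therefore treated as independent although some share a dog, and each p-value measures the spread between these samples alone.

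Between 157871 and 7896424 reads per library fell on miRNAs (median 1364823), and levels are given as RPM, read counts scaled to the library's total of such reads. A count of 3 reads, the limit that a count of 0 allows, corresponds to 0.380 RPM in the deepest and 19.0 RPM in the shallowest library. Intervals and floors cover counting error only. The study reports low RNA integrity for plasma and bone marrow, with a lower share of mapped reads in marrow. Some kidney samples also had low integrity, but mapped much like kidney samples of higher integrity. Thymus, with higher integrity, varied most in its share of mapped reads. The part of RNA quality in the levels was not tested. In 7 libraries every defining marker of the labelled tissue stood below 10% of its highest level in that tissue. These are skeletal muscle 4, testis 2 and 3, duodenum 3 and 4, and thymus 2 and 3, and the medians of these tissues, and the calls that change without them, are given both ways. In sciatic nerve the myelin miRNA miR-219-3p had no read in either library, and miR-338 was the marker seen there. In bulk tissue, fewer cells of a type and less RNA per cell cannot be told apart.

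miR-29a had its highest level in pancreas and brain, with tissue medians of 2438 and 2315 RPM, and its lowest in skeletal muscle, at 511 RPM. Between them the medians ran in the order ileum (1807 RPM), liver (1747), jejunum (1694), lung (1155), testis (1100.4), duodenum (1077), colon (1061), plasma (821), kidney (799), bone marrow (721), heart (665), sciatic nerve (659.6) and thymus (552). The span from the highest to the lowest tissue median was 4.77-fold. Over single libraries the level ran from 120.3 to 2656 RPM. Without the libraries low in their own markers the miR-29a medians were 1651 RPM in duodenum, 1043 in testis, 862 in thymus and 511 in skeletal muscle.

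miR-29b was the scarce member, with a median over all libraries of 52.9 RPM against 1106 for miR-29a and 188 for miR-29c. The order was ileum (135.0 RPM), jejunum (134.8), brain (109.7), liver (107), colon (93.7), pancreas (76.7), duodenum (53.6), testis (51.8), lung (49.9), heart (40.4), kidney (34.7), bone marrow (25.1), thymus (21.7), plasma (20.9), skeletal muscle (14.0) and sciatic nerve (11.7). The span of medians was 11.6-fold. The place of duodenum rests on libraries 3 and 4, which are low in their own markers: without them its median was 177 RPM and stood first. Without the low-marker libraries the medians of testis, thymus and skeletal muscle were 69.6, 39.8 and 16.1 RPM.

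miR-29c had the widest span of tissue medians, 15.1-fold. Pancreas led at 1136 RPM, before heart (871), brain (639), testis (543), skeletal muscle (225), plasma (222), jejunum (207), colon (192), lung (187), kidney (169), ileum (162), bone marrow (156), liver (133), duodenum (122), thymus (108) and sciatic nerve (75.3). Liver, jejunum and ileum, all in the upper part of the miR-29a order, stood in the lower or middle part of this one. Without the low-marker libraries the miR-29c medians were 546 RPM in testis, 305 in skeletal muscle, 150.02 in duodenum and 124 in thymus.

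**Figure D1:**
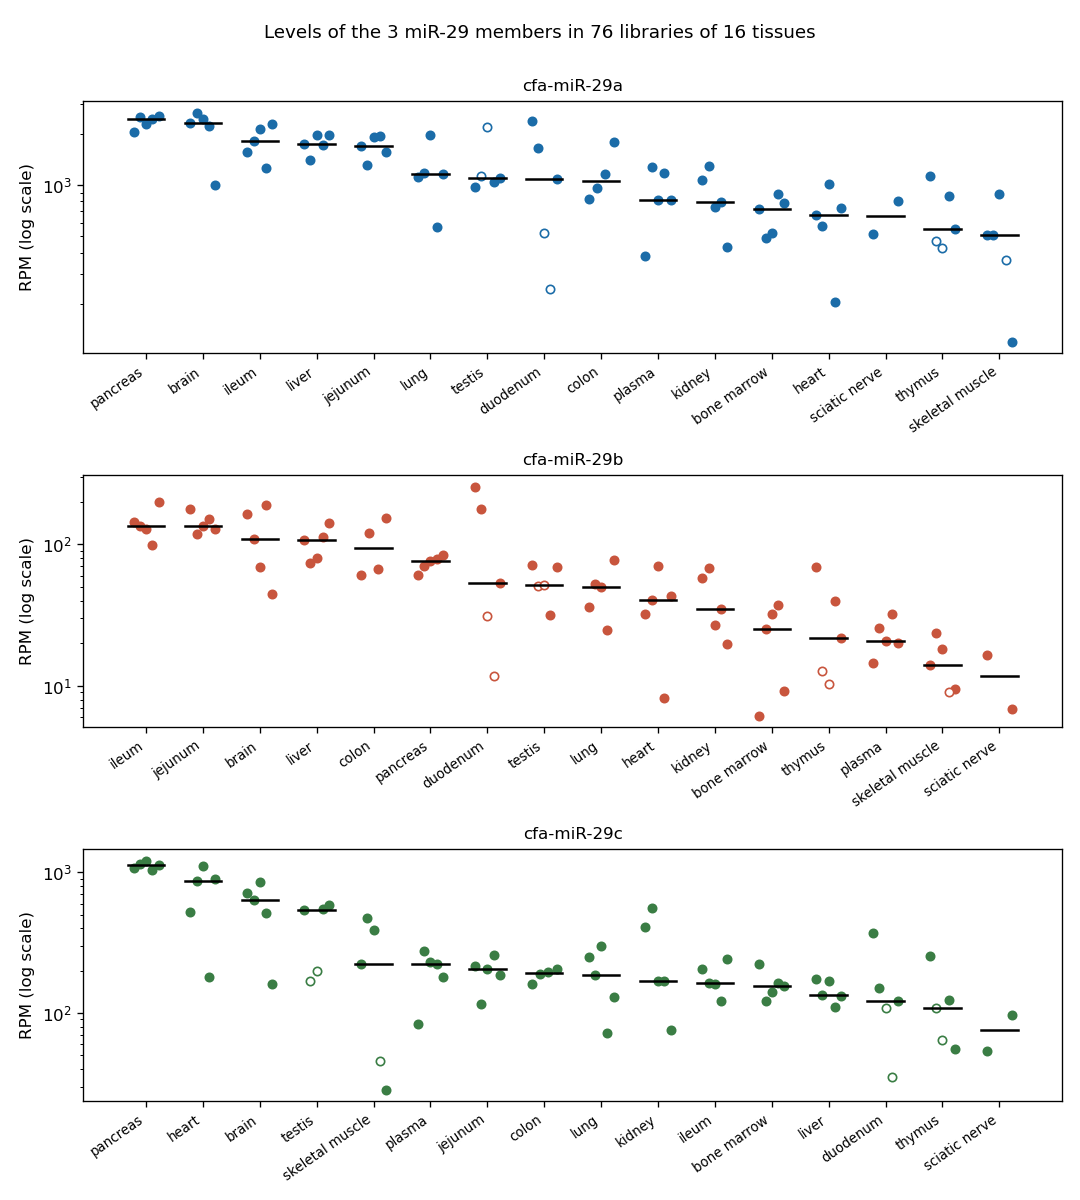
Level of miR-29a, miR-29b and miR-29c in RPM (log axis) in each of the 76 libraries, with tissues ordered by their median in each panel, a black line at the median and open circles for the 7 libraries low in the markers of their own tissue. Pancreas leads miR-29a at a median of 2438 RPM and miR-29c at 1136 RPM, while ileum leads miR-29b at 135.0 RPM with all libraries and duodenum at 177 RPM without its open circles.

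Neighbouring tissues in these orders were compared by a test with little power to separate them. Among the 45 comparisons of neighbours in the order of medians, none passed a two-sided exact permutation test of mean log2(RPM + 1) after adjustment over the 45, and 1 had an unadjusted p under 0.05. That one was miR-29c in pancreas against heart, with a difference of 0.89 (log2) and an exact p of 0.0238. The design limits this test, since 5 against 5 libraries cannot reach an exact p below 0.00794 and 2 against 5 not below 0.0476. A single pair at that lowest p could not pass the adjustment over the 45. The pairs were also picked as the closest medians in these same data. The lack of calls therefore does not show that neighbours had equal levels. Over all pairs of tissues, neighbours included, disjoint ranges were less common for miR-29a and miR-29c than for miRNAs at large. For miR-29b their share was near that of miRNAs at large. The spread of this share over miRNAs is not given here, so these counts do not set the members apart. The RPM values of 2 tissues did not overlap in 37 of 120 pairs of tissues for miR-29a (30.8%), in 45 for miR-29b (37.5%) and in 23 for miR-29c (19.2%), against 40.2% over the pairs of all miRNAs with a tissue median above 100 RPM.

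Each tissue was then compared with the mean of the other 15 by edgeR's quasi-likelihood test with TMM scaling, with p-values adjusted by Benjamini-Hochberg over the 480 miRNAs tested (calls at an adjusted p under 0.05). Of the 48 comparisons of the family, 14 were called higher and 12 lower. Over all miRNAs and tissues 24.6% of comparisons were called higher and 14.3% lower, and no test set the members apart from these shares. Folds below are log2 fold changes with their standard errors (SE), on TMM-scaled counts unless the scaling by deposited totals is named.

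The largest difference in the family was miR-29c in pancreas. The 5 pancreas libraries had 1074, 1147, 1212, 1047 and 1136 RPM (mean 1123 ± 64.8, SD), and 3 of them lay above every library of any other tissue. Heart 3, at 1110.4 RPM, was the single library elsewhere within the pancreas range. The level was higher in pancreas by 2.67 (SE 0.24) with an adjusted p of 1.96e-15 in edgeR, in a comparison where 21.2% of all miRNAs were called higher and the median miRNA stood at −0.38. It was 2.39 under the deposited totals. The 5 libraries lay close together, the highest at 1.16 times the lowest.

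miR-29a was also higher in pancreas, by 1.43 (SE 0.21, adjusted p 2.04e-08 in edgeR). Its libraries had 2037, 2508, 2267, 2438 and 2549 RPM, a range that brain, duodenum, ileum and testis libraries shared. miR-29b, at 60.4, 70.6, 76.7, 78.9 and 84.4 RPM, was higher by 0.82 (SE 0.27, adjusted p 0.00941 in edgeR). Under the deposited totals that value was 0.57 with an adjusted p of 0.197, and leaving out pancreas 1, 2 or 3 also ended the call (adjusted p up to 0.102). All 3 members were thus called higher in pancreas with TMM scaling, most of all miR-29c, while the call of miR-29b depended on scaling and libraries.

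Heart and skeletal muscle are both striated muscle, and in heart the members moved in opposite directions. miR-29c had 527, 871, 1110.4, 179 and 897 RPM in the heart libraries (mean 717 ± 366, SD), overlapping the range of most tissues through library 4. It was higher by 1.89 (SE 0.26, adjusted p 7.79e-09 in edgeR; background 21.9% higher). miR-29a, at 665, 578, 1018, 206 and 735 RPM, was lower by −0.61 (SE 0.25, adjusted p 0.0463; background 17.3% lower), and that call was lost when any of 9 libraries was left out, heart 2 and 4 among them (adjusted p up to 0.237). miR-29b in heart, from 8.16 to 69.7 RPM, was not called.

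Heart 4 had the lowest level of all 3 members among the heart libraries. In the same library the erythroid markers summed to 274986 RPM, against 99921 to 121423 in the other heart libraries, and the 2 heart markers to 1809 RPM, against 2683 to 4497. The part of this in the levels was not tested.

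Skeletal muscle libraries had 225, 474, 386, 45.4 and 28.5 RPM of miR-29c. The 3 high libraries lay within the range of heart and the 2 low ones below it. The difference from the other tissues was 0.72 (SE 0.30, adjusted p 0.0439 in edgeR, background 26.5% higher), but its direction depended on the scaling: it was −0.022 (adjusted p 1) under the deposited totals and −0.62 on log2(RPM + 1) in limma. Without the 7 libraries low in their own markers it was 0.88 (adjusted p 0.0074 in edgeR), and leaving out any of 44 single libraries ended the call (adjusted p up to 0.877). Skeletal muscle 4, the library at 45.4 RPM, had striated muscle markers of 685 RPM against 37929 to 111880.4 in the other skeletal muscle libraries. Library 5, at 28.5 RPM, had 37929.

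The other members were low in skeletal muscle under both scalings. miR-29a had 511, 511, 885, 363 and 120.3 RPM and was lower by −0.66 (SE 0.25, adjusted p 0.029 in edgeR, background 16.5% lower), or −1.27 under the deposited totals. Leaving out any of 8 libraries, skeletal muscle 2, 4 and 5 among them, ended that call (adjusted p up to 0.146). miR-29b had 14.0, 23.4, 18.2, 9.07 and 9.50 RPM and was lower by −1.13 (SE 0.36, adjusted p 0.00806), or −1.85 under the deposited totals. Without the low-marker libraries the values were −0.55 (adjusted p 0.0316) for miR-29a and −1.06 (adjusted p 0.00688) for miR-29b. The comparison of heart with skeletal muscle called none of the members, with 12.7% of all miRNAs called in either direction. miR-29c differed there by 1.10 (adjusted p 0.0918), and by 1.62 (adjusted p 0.0233) under the deposited totals.

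Brain ranked among the top 3 tissues for each member by RPM, yet whether it differed from the other tissues depended on the scaling. miR-29a had 2315, 2656, 2445, 2206 and 1004 RPM, miR-29b 163, 109.7, 69.2, 188 and 44.7 RPM, and miR-29c 719, 639, 854, 512 and 162 RPM. Brain 5 was the lowest library for all 3 and also had the lowest brain marker sum, 42495 RPM against 68096 to 90728 in the others. With TMM scaling none was called: −0.096 for miR-29a, 0.033 for miR-29b and 0.27 for miR-29c (adjusted p 0.79, 1 and 0.458 in edgeR; background 45.2% higher and 28.1% lower). Under the deposited totals the values were 1.02, 1.24 and 1.37 (adjusted p 0.000416, 0.00029 and 0.000121), and the median of all miRNAs moved from 0.13 to 1.22. Under either scaling the members thus lay near the median miRNA of that comparison.

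Of the calls of higher miR-29b, all but that in pancreas were in the intestine and liver. Ileum libraries had 144, 135, 127, 98.8 and 198 RPM, and jejunum libraries 179, 119, 135, 151 and 129 RPM. Compared with the other tissues, miR-29b was higher in jejunum by 1.62 (SE 0.25, adjusted p 1.23e-07 in edgeR, background 27.3% higher) and in ileum by 1.41 (SE 0.25, adjusted p 5.96e-06, background 19.0% higher). Both ranges were clear of those in skeletal muscle, sciatic nerve, plasma, bone marrow and heart. Liver, at 107, 74.0, 79.7, 112 and 142 RPM, was higher by 1.21 (SE 0.26, adjusted p 0.000103, background 23.3% higher). The colon libraries, at 61.2, 120.2, 67.2 and 154 RPM, were higher by 1.07 (SE 0.29, adjusted p 0.00356, background 18.5% higher).

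Duodenum was higher in miR-29b by 1.13 (SE 0.26, adjusted p 0.000451 in edgeR, background 21.0% higher), and its libraries were far apart. Their 255, 177, 31.0, 11.7 and 53.6 RPM spanned 21.9-fold, the widest span of any member in any tissue. The libraries with little miR-29b had little of the intestinal epithelium markers: those summed to 327964, 521024, 23478, 5976 and 88623 RPM in the same order. The markers of smooth muscle ran the other way, with 136640.0, 85877, 615456, 412923 and 213351 RPM. Their part in the levels was not tested. Without duodenum 3 and 4 and the other low-marker libraries the difference was 1.70, while without duodenum 2 alone it was no longer called (0.72, adjusted p 0.0678).

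miR-29a in these organs was called higher in liver by 0.85 (SE 0.22, adjusted p 0.00112 in edgeR), in jejunum by 0.70 (SE 0.22, adjusted p 0.0087) and in ileum by 0.60 (SE 0.22, adjusted p 0.0341). Liver libraries had 1747, 1409.7, 1959, 1716 and 1965 RPM, jejunum libraries 1694, 1313, 1912, 1928 and 1551 RPM, and ileum libraries 1557, 1807, 2116, 1259 and 2277 RPM. The 3 ranges overlapped one another throughout. The jejunum value was 0.66 under the deposited totals, with an adjusted p of 0.0524, and the liver call was lost without sciatic nerve 1 (adjusted p 0.061). The ileum call was lost on leaving out any of 9 libraries, ileum 1, 2 and 3 among them (adjusted p up to 0.0798). miR-29c was called in none of liver, duodenum, jejunum, ileum and colon.

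Between neighbouring segments of the gut no member was called. The pairs were duodenum with jejunum, jejunum with ileum, and ileum with colon, where 9.38%, 3.75% and 0.208% of all miRNAs were called in either direction by edgeR. A p that misses the threshold does not show that the segments had equal levels.

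In sciatic nerve, bone marrow and thymus all 3 members were called lower. The 2 sciatic nerve libraries had 518 and 801 RPM of miR-29a, 16.5 and 6.87 of miR-29b, and 53.5 and 97.1 of miR-29c. In this order the differences were −1.07 (SE 0.41, adjusted p 0.0317 in edgeR), −2.62 (SE 0.59, adjusted p 0.000218) and −2.03 (SE 0.60, adjusted p 0.00422), with 14.4% of all miRNAs called lower. Leaving out sciatic nerve 2 ended the call of miR-29b (adjusted p 0.0811) and leaving out sciatic nerve 1 that of miR-29c (adjusted p 0.144). Either of them, or any of 5 libraries of other tissues, ended that of miR-29a (adjusted p up to 0.383).

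Sciatic nerve and brain, peripheral and central nervous tissue, differed in miR-29b by −2.48 (SE 0.62, adjusted p 0.000881 in edgeR) and in miR-29c by −2.16 (SE 0.65, adjusted p 0.0055), nerve being lower; 27.1% of all miRNAs were called lower in nerve. No nerve library reached the range of brain for either member. The call of miR-29b was lost without sciatic nerve 2 (adjusted p 0.0883) and that of miR-29c without sciatic nerve 1 (adjusted p 0.111). For miR-29a the difference was −0.91 (adjusted p 0.0872), and −1.69 (adjusted p 0.0141) under the deposited totals. The median of all miRNAs in this pair was −0.72 with TMM and −1.39 under the deposited totals.

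Bone marrow libraries had 721, 489, 524, 883 and 786 RPM of miR-29a, and 222, 121, 141, 164 and 156 RPM of miR-29c. Their miR-29b rested on 1, 6, 6, 7 and 2 reads, or 6.16, 25.1, 32.4, 37.0 and 9.20 RPM. A single read among that first library's total has a Wilson 95% interval of 1.09 to 34.9 RPM, which holds most of the others. edgeR called all 3 lower, miR-29a by −1.22 (SE 0.27, adjusted p 0.000116), miR-29b by −1.73 (SE 0.39, adjusted p 0.000169) and miR-29c by −1.09 (SE 0.36, adjusted p 0.0103), where 24.6% of all miRNAs were called lower and the median miRNA stood at −0.97. Under the deposited totals the values were −0.73 (adjusted p 0.059), −1.29 (adjusted p 0.0177) and −0.60 (adjusted p 0.261), with the median miRNA at −0.66. The miR-29a call was lost without bone marrow 1 or 3 (adjusted p up to 0.0745), the miR-29b call without bone marrow 1 or 5 (up to 0.0679) and the miR-29c call without any of 42 single libraries (up to 0.301).

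Plasma was the other blood-derived sample. It had 382, 1272, 821, 1172 and 819 RPM of miR-29a, 83.7, 277, 229, 222 and 180.4 of miR-29c, and 14.6, 25.5, 20.9, 31.9 and 20.05 of miR-29b. None was called against the other tissues with TMM scaling (background 27.9% higher and 24.8% lower), while miR-29b was −1.23 (adjusted p 0.00709) under the deposited totals. Against bone marrow all 3 were higher in plasma with TMM scaling, by 1.51 (SE 0.33, adjusted p 0.000123 in edgeR), 1.17 (SE 0.47, adjusted p 0.0364) and 1.47 (SE 0.45, adjusted p 0.0048) for miR-29a, miR-29b and miR-29c, with 26.5% of all miRNAs called higher. Leaving out any of 48 single libraries ended the miR-29b call (adjusted p up to 0.744) and any of 42 the miR-29c call (up to 0.158). Under the deposited totals the same differences were 0.39, 0.061 and 0.31 and none was called, and the libraries of plasma and marrow overlapped in RPM for each member.

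In thymus, miR-29a had 1130.3, 469, 428, 862 and 552 RPM, miR-29b 68.8, 12.7, 10.3, 39.8 and 21.7 RPM, and miR-29c 253, 108, 64.5, 124 and 55.2 RPM. The highest libraries for every member were 1 and 4, which also had the most of the lymphoid markers, 18966 and 15167 RPM against 424, 513 and 999.5 in libraries 2, 3 and 5. The marker of endothelium came to 9684 and 4287 RPM in libraries 1 and 4, and to 26541, 29193 and 27897 RPM in the others. edgeR called all 3 lower, by −0.81 (SE 0.26, adjusted p 0.0134), −0.88 (SE 0.32, adjusted p 0.0359) and −1.17 (SE 0.36, adjusted p 0.0095), with 5.21% of all miRNAs called lower. Without thymus 2 and 3 and the other low-marker libraries the values were −0.67 (adjusted p 0.0505), −0.58 (adjusted p 0.231) and −1.13 (adjusted p 0.0316). With single libraries left out, the call was lost for any of 34 in miR-29a (adjusted p up to 0.144), for any of 52 in miR-29b (up to 0.355) and for thymus 3 or 5 in miR-29c (up to 0.108). Between thymus and bone marrow no member was called, with 37.7% of all miRNAs called in either direction, and without the low-marker libraries miR-29b was higher in thymus by 1.13 (adjusted p 0.0369; 27.5% of all miRNAs were called higher in thymus with all libraries).

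Testis and kidney held uneven levels of miR-29c. The testis libraries had 543, 168, 200.3, 546 and 582 RPM, where libraries 2 and 3 were those low in testis markers, with 5204 and 609 RPM against 55737 to 103126. The markers of smooth muscle summed to 287874 and 239419 RPM in these 2 and to 75315 to 91582 RPM in the others. No member was called in testis with TMM scaling (miR-29c 0.37, adjusted p 0.334 in edgeR, background 34.0% higher and 16.0% lower). Under the deposited totals miR-29c was called higher by 0.83 (adjusted p 0.0392 in edgeR), with the median miRNA at 0.65. Without the low-marker libraries miR-29a was lower there by −0.76 (adjusted p 0.0117). In kidney, miR-29c at 411, 561, 168, 169 and 75.2 RPM was called higher by 0.81 (SE 0.29, adjusted p 0.0219; background 24.2% higher), but was 0.24 (adjusted p 0.821) under the deposited totals and was lost on leaving out any of 45 single libraries (up to 0.988). In lung no member was called (background 20.6% higher and 8.75% lower), and miR-29c had 252.3, 187, 301, 71.6 and 131 RPM.

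**Figure D2:**
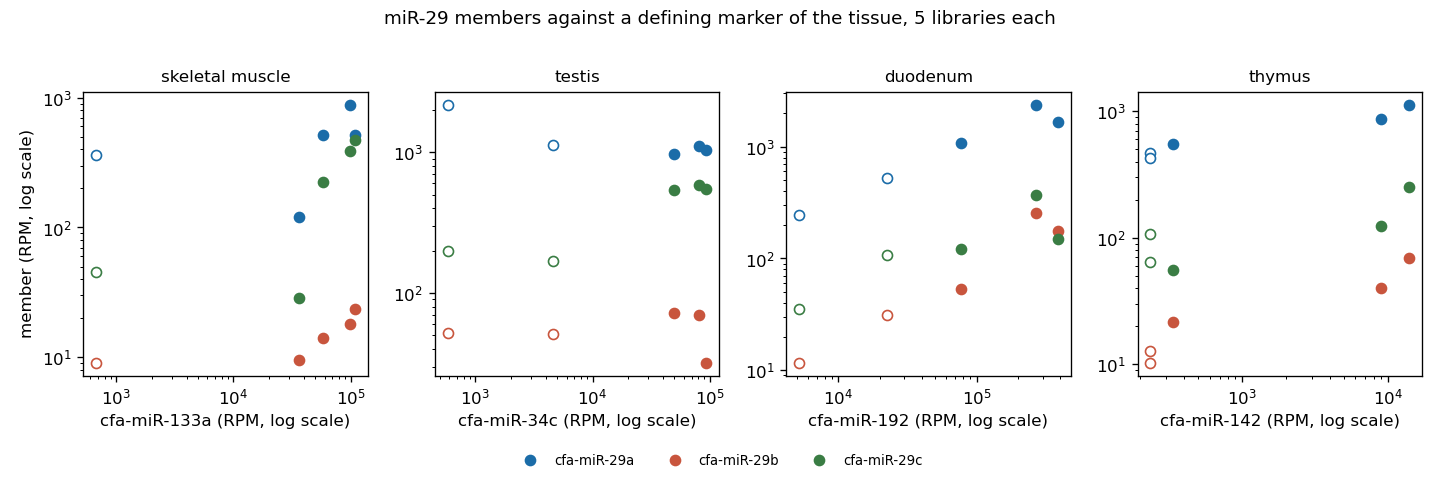
Level of the 3 members (RPM, log axis) against a defining marker of the labelled tissue in each library of skeletal muscle (miR-133a), testis (miR-34c), duodenum (miR-192) and thymus (miR-142), 1 panel a tissue. In duodenum miR-29b ran from 11.7 to 255 RPM, lowest in libraries 3 and 4 with little miR-192, and in testis miR-29c was lowest in libraries 2 and 3 with little miR-34c.

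The scaling therefore set several calls, and the balance between members within a library does not depend on it. Of each library's miR-29 reads, miR-29c made up 50.2% ± 6.2 (SD, n = 5) in heart, from 43.0 to 58.5%, and 31.7% ± 2.2 in pancreas. It was 27.2% ± 13.8 in skeletal muscle and 24.4% ± 12.9 in testis. The lowest shares were in liver (7.23% ± 1.36) and ileum (8.47% ± 1.49). miR-29b stayed a minor part everywhere, between a mean of 1.78% in sciatic nerve and 7.11% ± 1.03 in jejunum.

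The ratio of the reads of 2 members was tested in each tissue against all other libraries by a two-sided exact rank-sum test, adjusted over the 48 tests, and 12 were called. The share called for other pairs of miRNAs is not given here, so this count does not set the members apart. The ratio of miR-29c to miR-29a in the heart libraries was 0.792, 1.51, 1.09, 0.873 and 1.22. In no other tissue did a library reach parity, the nearest being skeletal muscle 2 at 0.927. On the log2 scale heart averaged 0.094 ± 0.37 (SD) against −2.41 in the other libraries, a difference of 2.50 (adjusted exact p 2.08e-05). Pancreas followed, with a mean ratio of 0.477, 1.26 above the others on the log2 scale (adjusted exact p 0.0163). Liver and ileum stood at the other end with mean ratios of 0.0813 and 0.0986, differing by −1.48 and −1.18 (adjusted exact p 0.00066 and 0.0158).

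Skeletal muscle and testis were split. The ratio of miR-29c to miR-29a was 0.440, 0.927, 0.437, 0.125 and 0.237 in skeletal muscle, and 0.560, 0.148, 0.0917, 0.524 and 0.529 in testis. The libraries low in their own markers, skeletal muscle 4 and testis 2 and 3, had the lowest ratios in each tissue. Neither tissue was called.

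The ratio of miR-29c to miR-29b was called higher in heart (mean ratio 19.2, log2 difference 2.20, adjusted exact p 0.00133) and in pancreas (15.2, 1.84, adjusted exact p 0.0212). It was called lower in ileum (1.27, mean log2 ratio 0.34 against 2.34 elsewhere, adjusted exact p 0.00393), jejunum (1.35, −1.90, adjusted exact p 0.0135) and liver (1.42, −1.82, adjusted exact p 0.0163). The ratio of miR-29b to miR-29a was called higher in jejunum (0.0847, 0.95, adjusted exact p 0.0116) and ileum (0.0777, 0.82, adjusted exact p 0.0212), and lower in plasma (0.0265, −0.85, adjusted exact p 0.0163). In every called tissue the libraries overlapped the range of the others. The 12 calls also held without plasma and bone marrow (11 of 11, plasma being out), with 1 read added to both members and without the low-marker libraries, and 8 of them held with each library left out in turn. The others were miR-29b to miR-29a in ileum (lost without ileum 1, 2, 4 or 5, adjusted exact p up to 0.079) and in plasma (without plasma 2, 0.0628), and miR-29c to miR-29b in liver (without liver 4 or 5, up to 0.0633) and in pancreas (without pancreas 1 or 2, up to 0.068).

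**Figure D3:**
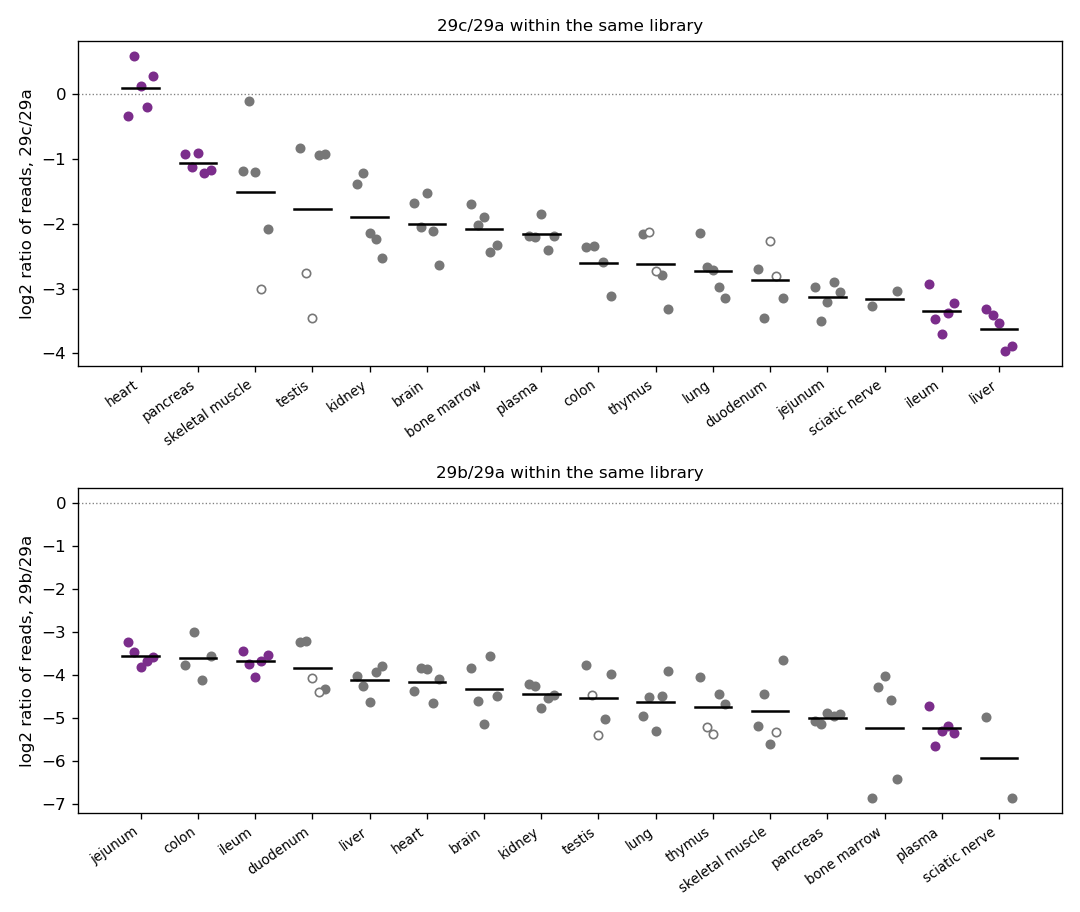
Log2 ratio of miR-29c to miR-29a reads and of miR-29b to miR-29a reads in every library, by tissue, with a line at the tissue mean, purple for tissues called by the exact rank-sum test and open circles for libraries low in their own markers. Heart sits around 0 for miR-29c to miR-29a (mean 0.094), while liver averages −3.62.

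The opposite strands of the hairpins were present under human names, as rows annotated from human miRBase entries that match the dog genome. hsa-miR-29c-5p, from the arm opposite to miR-29c, had 2109 reads and was seen in 74 of 76 libraries. Its median was highest in heart, at 47.6 RPM, with 26.8, 47.6, 59.1, 34.3 and 62.4 RPM in the libraries. Brain libraries had 45.8, 33.3, 22.1, 125 and 19.1 RPM, and skeletal muscle libraries 29.5, 49.2, 52.8, 9.07 and 31.7 RPM. Pancreas, where miR-29c itself was highest, had 11.2, 22.1, 23.9, 19.9 and 23.7 RPM, all below the lowest heart library.

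edgeR called hsa-miR-29c-5p higher in skeletal muscle by 2.49 (SE 0.26, adjusted p 8.84e-13), in heart by 2.32 (SE 0.23, adjusted p 3.4e-13), in kidney by 1.06 (SE 0.26, adjusted p 0.000555), in pancreas by 1.05 (SE 0.26, adjusted p 0.00069) and in brain by 0.92 (SE 0.25, adjusted p 0.000868). In the same order 26.5%, 21.9%, 24.2%, 21.2% and 45.2% of all miRNAs were called higher. The strand was called lower in liver by −0.82 (adjusted p 0.0477 in edgeR, background 12.5% lower), on 4 to 14 reads a library. It was also lower in sciatic nerve than in brain, by −1.63 (adjusted p 0.0171 in edgeR, background 27.1% lower). The kidney value was 0.38 (adjusted p 0.379) under the deposited totals. Unlike miR-29c, this strand kept its direction in skeletal muscle under the deposited totals, at 1.71. In plasma it had 0, 1, 1, 1 and 1 reads, at or under the floor of 3 reads in every library (1.70 to 10.9 RPM), and no fold is given. miR-29c itself had 83.7 to 277 RPM in the same plasma libraries.

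With both strands counted together, hsa-miR-29c-5p made up 12.1% of the pooled reads of the pair in skeletal muscle and 9.84% in sciatic nerve. The share was 7.69% in bone marrow, 7.05% in brain, 5.37% in heart, 3.87% in liver, 1.69% in pancreas and 0.277% in plasma. Single libraries overlapped, with 9.42 to 52.6% in skeletal muscle, 2.52 to 19.6% in brain and 4.85 to 16.0% in heart. Sciatic nerve rested on 18 reads of this strand, bone marrow on 13 and plasma on 4. The share of 52.6% was that of skeletal muscle 5, with 10 reads of this strand and 9 of miR-29c. hsa-miR-29a-5p made up 0.138 to 0.810% of its pair across tissues, on 511 reads in 63 of 76 libraries. It was called higher in pancreas by 1.20 (adjusted p 0.012 in edgeR, background 21.2% higher) and in jejunum by 1.01 (adjusted p 0.0412, background 27.3% higher). Neither was called under the deposited totals (adjusted p 0.0605 and 0.0737 in edgeR). The pancreas libraries had 8 to 19 reads of this strand and the jejunum libraries 4 to 15. hsa-miR-29b-2-5p, the opposite strand of the miR-29b copy beside miR-29c, had 514 reads and its highest medians in brain (15.3 RPM) and heart (10.6 RPM). It was called higher in heart by 1.88 (SE 0.37, adjusted p 2.29e-05 in edgeR, background 21.9% higher) and in brain by 1.54 (SE 0.33, adjusted p 3.3e-05, background 45.2% higher). It was also higher in heart than in skeletal muscle by 2.02 (SE 0.70, adjusted p 0.0404 in edgeR, background 6.25% higher). hsa-miR-29b-1-5p, from the copy beside miR-29a, had 96 reads in all and was not tested.

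**Figure D4:**
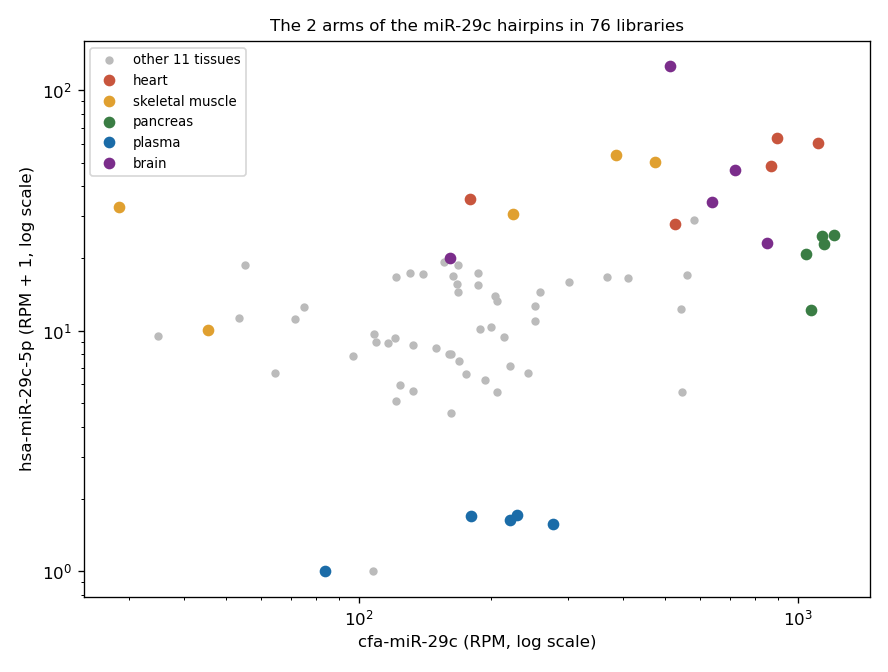
Level of hsa-miR-29c-5p (RPM + 1, log axis) against that of miR-29c (RPM, log axis) in every library, with heart, skeletal muscle, pancreas, plasma and brain in colour. Heart libraries combine high levels of both strands, except for heart 4 with 179 RPM of miR-29c. Pancreas libraries lie at the highest miR-29c with 11.2 to 23.9 RPM of the opposite strand, and plasma libraries lie at the bottom.

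miR-29a was the even member across tissues. The CV of its 16 tissue medians of log2(RPM + 1) was 7.20% with an SD of 0.72 (log2), rank 10 from the lowest among 129 miRNAs detected in every library, whose median CV was 14.6%. miR-29c had a CV of 14.3% (SD 1.12, rank 64) and miR-29b one of 20.2% (SD 1.13, rank 96). This CV divides the SD by the mean of the log2 medians, so at equal SD it is lower for more abundant miRNAs. The means were 7.86 for miR-29c and 5.58 for miR-29b, so with near-equal SDs their ranks differ through abundance. Among the 60 miRNAs with every tissue median above 100 RPM the median CV was 10.3%. There miR-29a had the same rank. The median SD was 1.08 (log2) among these 60 and 1.18 among the 129. miR-16 and miR-186, which the study used beside miR-29a as evenly expressed miRNAs, had CVs of 7.62% (rank 14) and 3.24% (rank 1). The study chose these 3 on the same samples, so their low CVs are not independent evidence. An SD of similar size, 0.65 (log2), separated libraries of the same tissue for miR-29a. In edgeR miR-29a was called in 9 of 16 tissues, where 24.6% of all comparisons were called higher and 14.3% lower. Of these calls only that in pancreas held in every setting tried and with every library left out.

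By the study's measure of tissue enrichment (TE), the ratio of a tissue's mean to the mean of all other libraries above 5 with an adjusted p under 0.05 in a two-sided exact rank-sum test, no member was enriched in any tissue. This compares with 4.91% of all combinations of miRNA and tissue, 5.65% in pancreas. The highest ratio was 4.27, for miR-29c in pancreas (1123 against 263 RPM, adjusted exact p 1.5e-05). Next came miR-29c in heart at 2.46, miR-29b in jejunum at 2.25 and miR-29a in pancreas at 2.03. Of the 48 combinations, 19 had an unadjusted p under 0.05 and 7 an adjusted one. The share of all miRNAs passing by this p alone is not given here, so these counts do not set the members apart. The pancreas ratio for miR-29c passed 5 when medians replaced means (6.30) or TMM library sizes replaced the totals (5.09).

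The members did not share 1 tissue pattern. Across the 16 tissue medians miR-29a and miR-29b had a Spearman rho of 0.85 (Pearson 0.87), against 0.31 (0.40) for miR-29a and miR-29c and 0.21 (0.32) for miR-29b and miR-29c. Within tissues, the deviations of the 76 libraries from their tissue means went together for every pair, with Pearson r of 0.72, 0.79 and 0.61 in the same order, and of 0.60, 0.68 and 0.46 with TMM scaling. Without TMM, other miRNAs had a median r of 0.27, 0.19 and 0.21 with miR-29a, miR-29b and miR-29c and a 95th percentile of 0.73, 0.66 and 0.71. The r of miR-29b with miR-29c lay below the percentiles of both, that of miR-29a with miR-29b below that of miR-29a only, and that of miR-29a with miR-29c above both. All these values share libraries and their totals.

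The tissue patterns most like each member were ranked by Spearman rho over the 16 medians among 263 other miRNAs with a tissue median above 100 RPM. For miR-29a these were miR-153 (0.90), miR-135a-5p (0.79) and hsa-miR-141-5p (0.73), and for miR-29b miR-153 (0.85), miR-135a-5p (0.80) and hsa-miR-28-5p (0.77). For miR-29c they were miR-499 (0.67), a miRNA encoded within a muscle myosin gene, then miR-30b (0.62) and miR-135a-5p (0.57). The likeness of miR-499 was lower by Pearson's r (0.53). At the other end stood miR-10b for miR-29a (−0.68), miR-486 for miR-29b (−0.79) and miR-146a for miR-29c (−0.59).

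Other miRNAs known from work on fibrosis and matrix were read in the same comparisons. The list held miR-21, miR-199, miR-214, miR-155, miR-192, miR-200a, miR-200b, miR-200c, miR-30a, miR-30c, miR-133a and miR-26a, and all 12 were tested. Among them miR-192 and miR-133a are also markers of intestinal epithelium and of striated muscle, and miR-200a and miR-200b had no read in some tissues. In pancreas 7 of the list were called higher and 4 lower (background 21.2% and 19.2%, median 0.61 against −0.38 for all miRNAs). There miR-30c was higher by 0.92 (adjusted p 0.000178 in edgeR) and the mesenchymal miR-214 lower by −3.00 (adjusted p 1.75e-06). Ileum had 6 higher and 3 lower (background 19.0% and 8.75%, median 1.64 against 0.0033), with miR-192 at 3.56 (adjusted p 2.05e-18), miR-21 at 2.45 (adjusted p 8.67e-14) and miR-30a at −1.38 (adjusted p 9.98e-05). Skeletal muscle had 6 higher and 3 lower (background 26.5% and 16.5%, median −0.049 against −0.25), with muscle miR-133a at 8.50 (adjusted p 5.67e-29), miR-214 at 2.15 (adjusted p 6.04e-08) and miR-21 at −2.30 (adjusted p 6.06e-07). In sciatic nerve, where all 3 miR-29 members were lower, 3 of the list were higher and 2 lower (background 24.8% and 14.4%, median −0.28 against −0.056), with miR-214 at 2.08 (adjusted p 0.000198) above and miR-21 at −2.21 (adjusted p 0.00153) below.

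In the remaining tissues the list differed in direction. Most of it was called higher in lung, with 9 higher and 2 lower (background 20.6% and 8.75%), and in jejunum, with 8 and 2 (27.3% and 13.1%). In brain 0 were called higher and 8 lower (45.2% and 28.1%), and in plasma 1 higher and 8 lower (27.9% and 24.8%). Colon had 6 higher and 2 lower (18.5% and 6.46%), duodenum 6 and 0 (21.0% and 3.75%), kidney 6 and 1 (24.2% and 10.2%) and liver 6 and 3 (23.3% and 12.5%). Testis had 4 higher and 4 lower (34.0% and 16.0%), heart 3 and 4 (21.9% and 17.3%), bone marrow 2 and 6 (16.5% and 24.6%) and thymus 2 and 1 (21.2% and 5.21%). The medians of the list were 1.24 in lung, 1.10 in jejunum, 1.68 in colon, 0.97 in duodenum, 0.59 in kidney, 0.44 in liver, −0.19 in testis, −0.26 in thymus, −1.11 in heart and −2.19 in brain. The medians of all miRNAs there were −0.19, −0.089, 0.087, 0.21, −0.0034, −0.36, 0.32, 0.19, −0.14 and 0.13. In bone marrow the list's median was −2.01, or −1.90 with the members without a read there set to a floor of 3 reads over the tissue, against −0.97 for all miRNAs. In plasma it was −2.36 either way, against −0.59.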

How the data were processed

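Per the labels and the study's methods, the samples were untreated male beagle tissues, sequenced on small RNA libraries at 36 base pairs. To make the deposited count values, the authors clipped adaptors, aligned reads to CanFam 3.1 with OSA v4 without mismatches, dropped reads at more than 10 locations and counted with bedtools those overlapping at least 70% of an miRNA locus (miRBase entries of dog, rat or human). The deposited RPM signal is the authors' count scaled by their total of miRNA reads. Recomputed RPM differed from it by at most 2.89e-09 (relative), and summed counts exceeded the totals by 0.0449 to 1.16%. An miRNA with no row in a library was set to 0.

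Groups are the labelled tissues. Of 77 labelled samples, 1 colon sample had no values, and 1 name in the table could not be assigned to a sample, so 76 libraries were used. Comparing 147 pairs of libraries within tissues found no duplicate (lowest chi-square per degree of freedom 10.3).

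Counts were fitted with edgeR 4.0.16 (R 4.3.3; TMM on the deposited totals, filterByExpr by tissue, quasi-likelihood F-test over all tissues). RPM levels, ratios and the TE rule were tested with Python 3.11.15, numpy 2.4.6, pandas 2.3.3 and scipy 1.17.1, and plotted with matplotlib 3.10.9. The scripts were tested on simulated data. Alternatives were DESeq2 1.42.0 (size factors and test), deposited totals, no filter, limma 3.58.1 on log2(RPM + 1), a pseudocount of 10 RPM, other forms of the ratio, TE and CV measures, and each library left out. Leaving out the 7 low-marker libraries was chosen after seeing the data. The text names the 3 members, their opposite strands, miR-16, miR-186, the 3 most alike and the least alike miRNA of each, and the fibrosis list. Members and lists were chosen with earlier results of these data known. Sequences of the miRNAs were not used here.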

Additional observations from a re-analysis of the deposited data

Results flagged for a closer look

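In 2 of 90 groups tested, each holding the levels or ratios of the family in 1 tissue, a single library stood apart from the rest by Dixon's criterion. Chance gives about 1 in 20 such groups. The first was brain, where library 5 had 1004 RPM of miR-29a against 2206 to 2656 RPM in the others, a gap of 0.728 of the whole range. Brain markers were also lowest in that library (42495 RPM). The second was testis, where library 3 had 2185 RPM of miR-29a against 969 to 1130.5 RPM in the others, a gap of 0.867 of the range. This library had 609 RPM of testis markers. Whether the markers account for either level was not tested.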

How the results depend on the processing

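No paired analysis was possible because the labels carry no dog number, although the tissues came from the same dogs, and library numbers are only names. Under the deposited totals in place of TMM, and under limma on log2(RPM + 1), the 12 lower calls became 7 each, and miR-29c in skeletal muscle turned to −0.022 and −0.62. Without the filter on low counts the 5 pair calls became 3. TE calls rose from 0 to 1 (miR-29c in pancreas) with medians in place of means and also with TMM library sizes. The cause was not tested. Leaving out 1 library at a time gave 11 to 14 higher calls, 7 to 12 lower, 3 to 6 between pairs, 11 to 13 ratio calls, and 0 neighbour and 0 TE calls throughout. CVs then ran from 6.95 to 7.47% for miR-29a, 19.0 to 21.7% for miR-29b and 13.8 to 14.9% for miR-29c. Of 31 calls against other tissues or in pairs, 14 held in all 6 settings tried in their place, 10 with every library left out, and 7 in both: miR-29a and miR-29c in pancreas, miR-29c in heart, and miR-29b in ileum, jejunum, liver and skeletal muscle. Without sciatic nerve 2 the miR-29b calls in that nerve were lost, and without sciatic nerve 1 those of miR-29c. Low read counts limit miR-29b most, with 3 reads or fewer in 2 bone marrow, 2 skeletal muscle and 1 thymus library.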
